A study of Mus musculus with 9 samples.

Results

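Of the 65389 rows of the expression table, 9 were taken by gene symbol: Pdgfra, Cspg4, Gpr17, Tnr, Olig1, Olig2, Sox10, Bcas1 and Enpp6, genes of oligodendrocyte precursors and of the cells that descend from them. All 9 were measured, 1 row each, and all 9 were among the 14013 genes kept for testing (at least 0.5 FPKM in at least 3 libraries). FPKM is a fragment count scaled by transcript length and by library size, so levels of different genes can be set side by side. RNA came from the medial prefrontal cortex of mice in 3 groups of 3 libraries: a running model, labelled as exercise, a model of chronic unpredictable stress (CUS), labelled as stress, and a control, labelled as unstressed. According to the series text the running mice had been through the stress, while the labels of the running libraries name exercise alone. Every library also carries the terms 4 week and week 8 with no word on which period each marks, and the labels give no strain, sex, age or housing. Nothing states that each library is a separate animal, so the p-values rest on a spread between libraries that could be technical.

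Oligodendrocyte precursors divide under the influence of platelet-derived growth factor and stay in the adult cortex as a resident population. Some of them commit, pass through a short newly formed stage and mature into cells that wrap axons in myelin. The transcription factors OLIG1, OLIG2 and SOX10 are made through the whole lineage. Within it, PDGFRA and NG2 (the product of Cspg4) are used as markers of precursors and GPR17 of committed precursors. BCAS1 and ENPP6 are used as markers of newly formed oligodendrocytes.

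Control replicate 3 and CUS replicate 3 stood apart from the other libraries. The summed level of a list of myelin genes was 1555 FPKM in control replicate 3 and at most 992 in any other library, and Ttr, a choroid plexus transcript, was at 212 FPKM there and at most 38.8 elsewhere. CUS replicate 3 had the highest sum of all FPKM values, 423257, where the other libraries lay between 370441 and 393663. Markers of cortical excitatory neurons were present in every library, with a sum over 10 genes between 1796 and 1956 FPKM. In tissue RNA, fewer cells of a type and less RNA per cell cannot be told apart.

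Averaged over the 9 libraries, Olig1 was the most abundant of the 9 genes at 39.95 FPKM, followed by Tnr at 21.2, Bcas1 at 19.99, Olig2 at 10.7, Sox10 at 10.6, Gpr17 at 8.78, Pdgfra at 7.78, Cspg4 at 2.85 and Enpp6 at 0.628. All but Enpp6 were above 0.5 FPKM in all 9 libraries. Enpp6 was above it in 6, namely the 3 controls, running replicates 1 and 2 and CUS replicate 1, so the controls alone were enough for it to pass the filter. The highest library exceeded the lowest by 1.29-fold for Pdgfra, by 2.64-fold for Bcas1 and by 3.63-fold for Enpp6.

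In the mouse assembly GRCm38.p6, the build behind mm10, all 9 are protein-coding genes. Olig2 (chr16:91225550-91228677) and Olig1 (chr16:91269769-91271939) are neighbours with 41092 bases between them, while Pdgfra (chr5:75151322-75198206), Cspg4 (chr9:56865104-56899870), Tnr (chr1:159523729-159931729), Sox10 (chr15:79154913-79164490), Bcas1 (chr2:170343973-170427911) and Enpp6 (chr8:46939197-47096762) lie apart. Of the 9 genes, only Gpr17 overlaps another gene kept for testing in the GENCODE M21 annotation.

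Promoter sequences (250 bases before to 50 bases after a transcription start) were taken from the RefSeq-derived table, build GRCm38.p6, for 5 of the 9 genes. The windows of Tnr (chr1:159523519-159523818), Pdgfra (chr5:75152001-75152300), Cspg4 (chr9:56864854-56865153) and Enpp6 (chr8:46986637-46986936) are printed below 5′ to 3′, all on the plus strand. They belong to genes of different stages whose means were lower in CUS than in control libraries at an unadjusted p under 0.05. The windows of Pdgfra and Enpp6 lie inside the gene spans given above, at a transcription start other than the outermost one. OLIG2 and SOX10 are DNA-binding proteins encoded by other genes of the list, and capitals mark letters that match short words known for such factors: the E-box words CATATG and CATCTG for OLIG2-type factors and ACAAAG and ACAATG for SOX factors, on either strand.
Tnr: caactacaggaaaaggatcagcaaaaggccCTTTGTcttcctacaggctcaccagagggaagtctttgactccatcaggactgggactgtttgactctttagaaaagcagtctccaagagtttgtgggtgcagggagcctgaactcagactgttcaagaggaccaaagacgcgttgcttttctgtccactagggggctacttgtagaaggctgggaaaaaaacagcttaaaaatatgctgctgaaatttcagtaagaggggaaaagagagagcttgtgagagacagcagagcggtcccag
Pdgfra: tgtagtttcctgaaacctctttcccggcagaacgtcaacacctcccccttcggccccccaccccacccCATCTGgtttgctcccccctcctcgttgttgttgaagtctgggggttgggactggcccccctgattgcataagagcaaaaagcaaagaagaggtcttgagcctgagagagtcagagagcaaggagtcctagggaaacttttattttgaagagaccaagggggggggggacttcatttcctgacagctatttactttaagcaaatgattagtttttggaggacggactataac
Cspg4: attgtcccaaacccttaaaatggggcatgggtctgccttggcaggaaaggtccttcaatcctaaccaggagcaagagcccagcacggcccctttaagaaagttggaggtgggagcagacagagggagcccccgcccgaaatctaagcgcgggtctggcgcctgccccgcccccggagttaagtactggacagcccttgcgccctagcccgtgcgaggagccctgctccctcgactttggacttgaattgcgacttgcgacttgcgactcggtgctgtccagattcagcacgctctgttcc
Enpp6: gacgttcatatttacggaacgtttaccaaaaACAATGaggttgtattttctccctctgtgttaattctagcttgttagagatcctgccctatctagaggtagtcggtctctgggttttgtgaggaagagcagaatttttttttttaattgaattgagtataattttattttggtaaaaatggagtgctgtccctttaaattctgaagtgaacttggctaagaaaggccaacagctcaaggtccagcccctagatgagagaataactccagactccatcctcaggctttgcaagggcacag
The Tnr window holds 1 match (ACAAAG on the minus strand, at position -220 from the start), that of Pdgfra 1 (CATCTG, at -182) and that of Enpp6 1 (ACAATG, at -219). The Cspg4 window holds none of these letters. The Olig2 window, not printed, has ACAATG on the minus strand at -68. Of 32851 promoter windows of the same length, 3.91% hold CATATG, 17.2% CATCTG, 18.7% ACAAAG and 12.6% ACAATG, and 42.2% hold any of them. The words do not overlap here, and a match is a description of letters, not of binding.

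**Figure D1:**
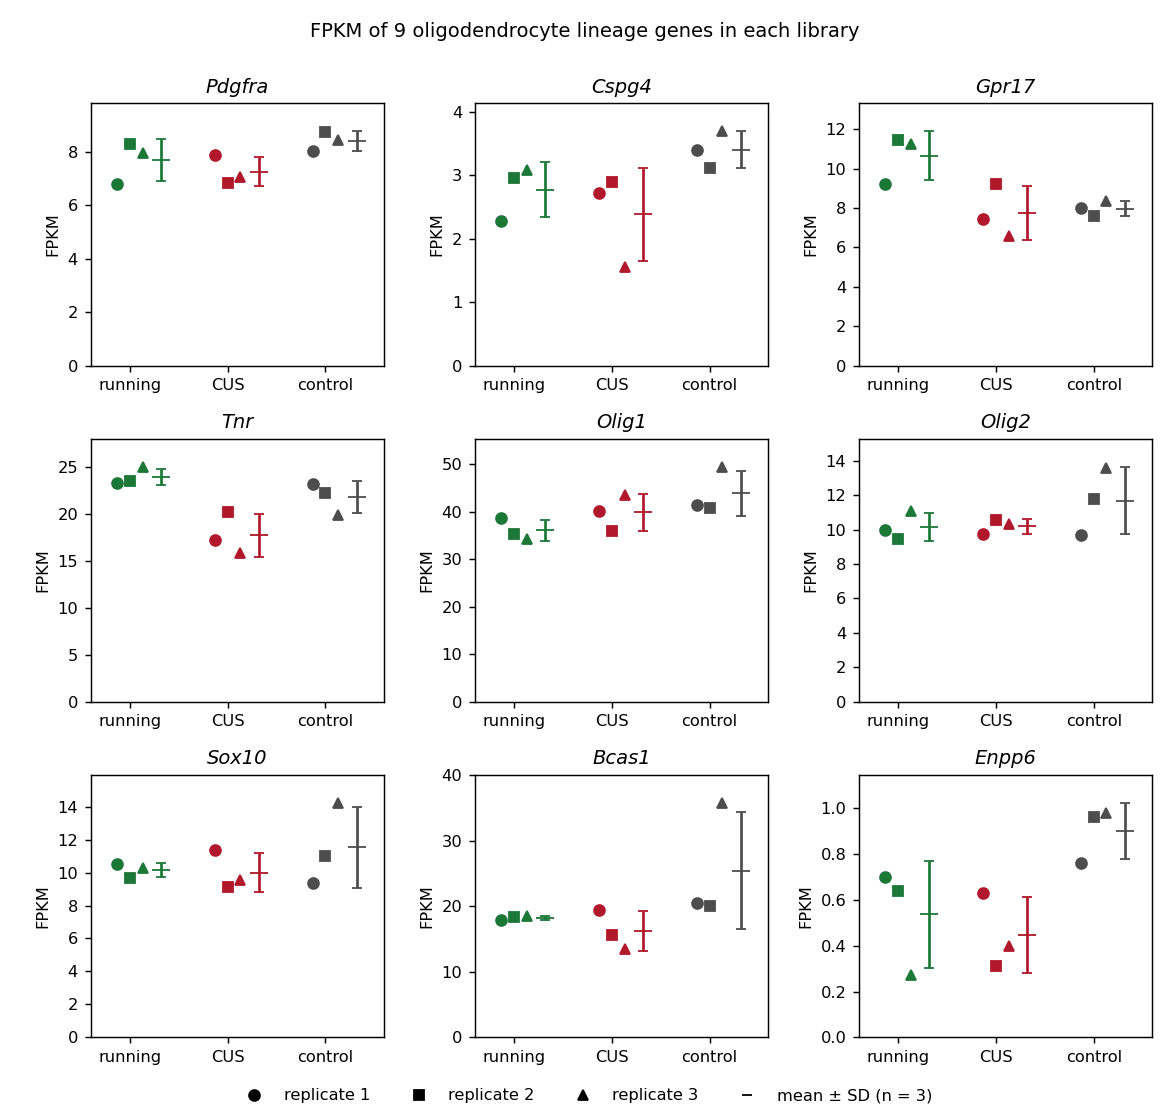
FPKM (vertical axes, from 0) of the 9 genes in each of the 9 libraries, by group, with the mean and SD of 3 libraries beside the points. Tnr and Gpr17 are highest in running libraries, and Bcas1 and Enpp6 are highest in controls, with control replicate 3 at 35.8 FPKM for Bcas1.

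The comparison of CUS with control libraries asks what stress was accompanied by in this lineage. All 9 genes had lower means in CUS libraries, with CUS means of 0.496 times the control mean for Enpp6, 0.636 times for Bcas1, 0.702 times for Cspg4 and 0.814 times for Tnr. No gene of the list passed the adjusted threshold. By limma's moderated test adjusted by Benjamini-Hochberg over all 14013 genes, adjusted p lay between 0.260 and 0.845, and 0.00714% of all genes were called. At an unadjusted p under 0.05 there were 5 lower genes of 9 (Tnr, Bcas1, Enpp6, Cspg4 and Pdgfra) and 0 higher, against 5.79% lower and 8.9% higher among all genes. Under TPM scaling 7 genes of the list were lower, against 9.66% lower and 3.94% higher among all genes. Under median-of-ratios scaling 5 were lower, against 7.21% and 7.13%, and under quantile normalization 6, against 6.59% and 6.96%. With library quality weights 2 were lower (Cspg4 and Tnr), against 8.01% and 13.4%. The median log2 difference of the 9 genes was -0.20, against 0.022 over all genes, and differences were below 0 for 44.1% of all genes and above 0 for 55.9%. The genes were chosen with earlier results of these libraries known, so these counts describe the list and do not test it.

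Pdgfra, the receptor through which precursors receive platelet-derived growth factor, had 7.87, 6.83 and 7.07 FPKM in CUS libraries, against 8.02, 8.74 and 8.45 in controls. Each CUS value lay below each control value, although CUS replicate 1 and control replicate 1 were close. On the log2 scale the difference was -0.20 (95% interval -0.39 to -0.01, limma adjusted p = 0.323). Cspg4, which encodes the NG2 proteoglycan of the precursor surface and is also made by pericytes, had 2.72, 2.89 and 1.55 FPKM in CUS libraries, against 3.40, 3.11 and 3.69 in controls. The groups did not overlap, and CUS replicate 3 was by far the lowest. The log2 difference was -0.47 (-0.86 to -0.07, limma adjusted p = 0.296), and without CUS replicate 3 it was -0.24. Markers of mural cells summed to between 65.4 and 87.7 FPKM in CUS libraries, against 81.7 to 85.3 in controls, and those of meningeal fibroblasts, where Pdgfra is also made, to between 42.1 and 79.1, against 36.3 to 58.0. No marker of either list was at 0 in every library, and their part in the result was not tested.

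Tnr encodes tenascin-R, an extracellular matrix glycoprotein of perineuronal nets and nodes that oligodendrocyte lineage cells and some interneurons secrete. It had 17.17, 20.26 and 15.79 FPKM in CUS libraries, against 23.21, 22.28 and 19.92 in controls. The groups overlapped by the pair of CUS replicate 2 and control replicate 3. The log2 difference was -0.29 (-0.49 to -0.10, limma adjusted p = 0.260). Markers of inhibitory neurons summed to between 1837 and 2267 FPKM in CUS libraries, against 1717 to 1961 in controls. Sst alone averaged 587 FPKM in CUS libraries and 554 in controls. Gene by gene, 5 of the 11 markers were higher in CUS libraries and 6 lower (median log2 difference -0.074). At an unadjusted limma p under 0.05, 3 were lower and 1 higher, against 5.79% and 8.9% of all genes. Gad2 averaged 25.7 FPKM in CUS libraries and 28.5 in controls, and Cnr1 41.7 and 35.5. The part of these markers in the result was not tested. Gpr17, a G protein-coupled receptor whose activity holds back maturation, had 7.44, 9.22 and 6.57 FPKM in CUS libraries, against 8.0, 7.57 and 8.34 in controls. The CUS values enclosed the control values, and the log2 difference was -0.05 (-0.31 to 0.21). It was 0.054 without CUS replicate 3. Gpr17 (chr18:31942999-31949890) lies on the minus strand and overlaps Lims2 on the plus strand, and since no step of the library protocol marks the strand, reads of the overlap cannot be told apart. Lims2 had 6.30, 6.34 and 7.46 FPKM in CUS libraries, against 7.26, 7.13 and 8.89 in controls. Lims2 is itself in the list of committed and newly formed oligodendrocyte genes used below.

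The lineage transcription factors had log2 differences of -0.14 (Olig1), -0.18 (Olig2) and -0.18 (Sox10). Olig1 averaged 39.9 ± 3.83 FPKM in CUS libraries and 43.9 ± 4.75 in controls, Olig2 10.2 ± 0.424 and 11.7 ± 1.94, and Sox10 10.0 ± 1.19 and 11.5 ± 2.45 (SD, n = 3 each). The 95% interval of the log2 difference held 0 for each of them, with -0.34 to 0.06 for Olig1, -0.41 to 0.06 for Olig2 and -0.47 to 0.10 for Sox10. Control replicate 3 was the highest of the 9 libraries for all 3 factors, and without it the log2 differences were -0.05, -0.07 and -0.03.

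Bcas1 encodes a cytoplasmic protein of early myelinating oligodendrocytes. It had 19.49, 15.60 and 13.53 FPKM in CUS libraries, against 20.54, 20.09 and 35.77 in controls. All CUS values lay below all control values, and control replicate 3 stood far above the rest. This gave a log2 difference of -0.60 (-1.03 to -0.17, limma adjusted p = 0.267), and -0.33 without control replicate 3. Enpp6, a choline-specific phosphodiesterase of newly formed oligodendrocytes, had 0.63, 0.31 and 0.40 FPKM in CUS libraries, against 0.76, 0.96 and 0.98 in controls. The groups did not overlap at this low level. Their log2 difference was -0.57 (-0.99 to -0.16, limma adjusted p = 0.267), and -0.53 without control replicate 3. Fully separated values were thus found for 4 of the 9 genes, all lower (Pdgfra, Cspg4, Bcas1 and Enpp6), against 7.6% of all genes separated downward and 12.1% upward. Without control replicate 3 the genes at an unadjusted p under 0.05 were 3 (Tnr, Enpp6 and Bcas1), against 4.07% of all genes lower, and without both libraries that stood apart they were Tnr and Bcas1, against 3.42% of all genes lower and 5.95% higher.

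**Figure D2:**
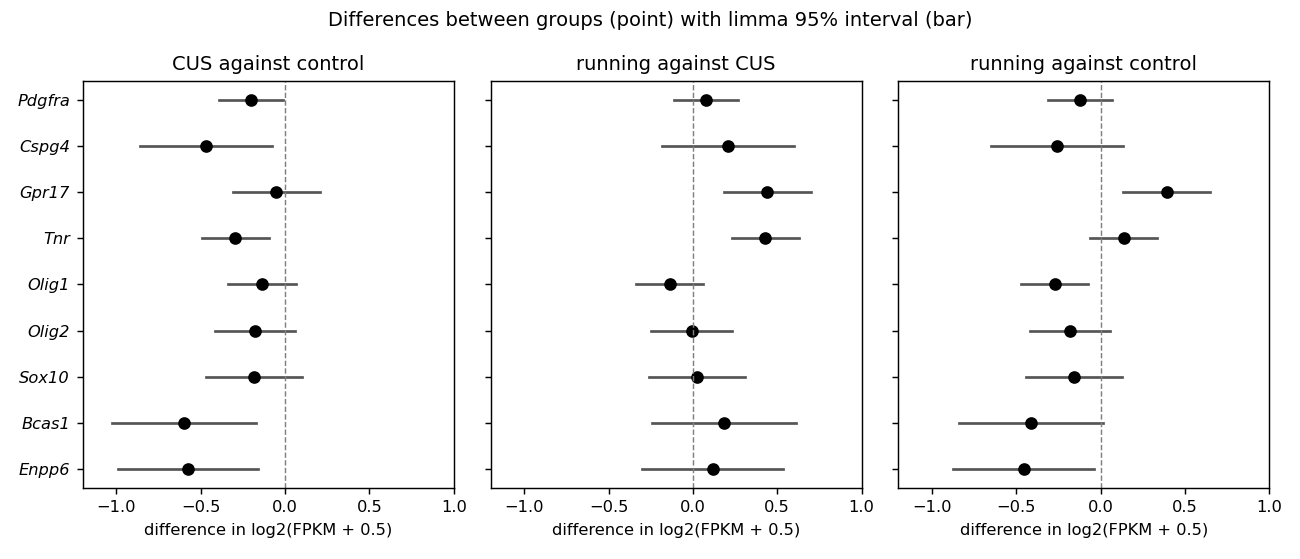
Differences in log2(FPKM + 0.5) between groups for the 9 genes, with limma's 95% interval for each of the 3 comparisons. In CUS against control all points lie below 0, and in running against CUS the intervals of Gpr17 and Tnr lie above 0.

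Running against CUS asks what exercise was accompanied by in stressed mice. Here 2 genes of the list stood out, Tnr and Gpr17, both at higher means in running libraries by 35.0% and 37.4%, while the other 7 genes had intervals that held 0. Neither passed the adjusted threshold (limma adjusted p = 0.0776 for Tnr and 0.0882 for Gpr17), and 0.00714% of all genes did. At an unadjusted p under 0.05 these were the only 2 of the 9, against 7.74% of all genes higher and 15.7% lower. Under TPM scaling these shares of all genes were 16.4% and 6.24%, under median-of-ratios scaling 10.7% and 11.8%, and under quantile normalization 11.2% and 10.9%, with the same 2 genes of the list each time. The median of the list was 0.12, against -0.033 over all genes, with 7 genes above 0 and 2 below it, against 42.2% and 57.8% of all genes. This median was 0.036 without CUS replicate 2, 0.059 without CUS replicate 3, 0.057 without running replicate 2, 0.25 without CUS replicate 1, and 0.0088 with library quality weights.

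Tnr had 23.34, 23.55 and 24.97 FPKM in running libraries, against 17.17, 20.26 and 15.79 in CUS libraries. All running values lay above all CUS values, and above all control values as well. The log2 difference from CUS was 0.43 (SE 0.0901, 95% interval 0.23 to 0.63). Values separated upward in 8.99% of all genes, and Tnr was the only gene of the list among them. Leaving out any 1 library gave log2 differences between 0.35 and 0.53. Without CUS replicate 2 both Tnr and Gpr17 were called (limma adjusted p = 0.0217 and 0.0259), in a fit that called 1535 of 13977 genes. They were also called with library quality weights (limma adjusted p = 0.0117 and 0.0166), in a fit that called 2178 of 14013 genes.

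Gpr17 had 9.21, 11.45 and 11.26 FPKM in running libraries, against 7.44, 9.22 and 6.57 in CUS libraries. Running replicate 1 and CUS replicate 2 were level, and the other values were apart. The log2 difference was 0.44 (SE 0.117, 0.18 to 0.70). It was 0.29, and that of Tnr 0.30, once a trend with transcript length and GC content had been taken out, an alternative chosen after seeing the data. Lims2 on the opposite strand had 6.34, 7.57 and 5.80 FPKM in running libraries, against 6.30, 6.34 and 7.46 in CUS libraries, and its running and CUS values overlapped. Pdgfra, by contrast, had 6.80, 8.30 and 7.96 FPKM in running libraries, with a log2 difference from CUS of 0.08 (-0.11 to 0.27), and Cspg4 had 2.28, 2.96 and 3.08, with 0.21 (-0.18 to 0.60). The Cspg4 value was -0.022 without CUS replicate 3.

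Olig1, Olig2 and Sox10 averaged 36.1 ± 2.22, 10.1 ± 0.833 and 10.1 ± 0.424 FPKM in running libraries (SD, n = 3 each). Their log2 differences from CUS were -0.14 (-0.34 to 0.06), -0.01 (-0.25 to 0.23) and 0.02 (-0.26 to 0.31). The sign of Olig2 turned under TPM, median-of-ratios and quantile normalization. Bcas1 had 17.94, 18.39 and 18.52 FPKM in running libraries, a tight group inside the range of the CUS values, with a log2 difference of 0.18 (-0.24 to 0.61). Enpp6 had 0.70, 0.64 and 0.27 FPKM there, spread beyond the range of the CUS values on both sides, with 0.12 (-0.30 to 0.54).

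The ratio of 2 genes within a library, which multiplying all values of a library by 1 factor leaves as it is, was also taken, and is given without a test. Gpr17 over Pdgfra was 1.35, 1.38 and 1.41 in running libraries, 0.945, 1.35 and 0.929 in CUS libraries, and 0.998, 0.866 and 0.987 in controls. CUS replicate 2 thus lay with the running libraries, and the other CUS libraries lay with the controls. Tnr over Pdgfra was 3.43, 2.84 and 3.14 in running libraries, 2.18, 2.97 and 2.23 in CUS libraries, and 2.89, 2.55 and 2.36 in controls. Gpr17 over Bcas1 was 0.513, 0.623 and 0.608 in running libraries, 0.382, 0.591 and 0.486 in CUS libraries, and 0.389, 0.377 and 0.233 in controls. Bcas1 varied with the myelin genes described below, so this ratio is not read as 1 stage over another. All running ratios exceeded all control ratios, and CUS libraries lay between or overlapped both. Bcas1 over Pdgfra lay between 2.22 and 2.64 in running libraries, between 1.91 and 2.48 in CUS libraries, and at 2.56, 2.30 and 4.23 in controls, where control replicate 3 was the exception.

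**Figure D3:**
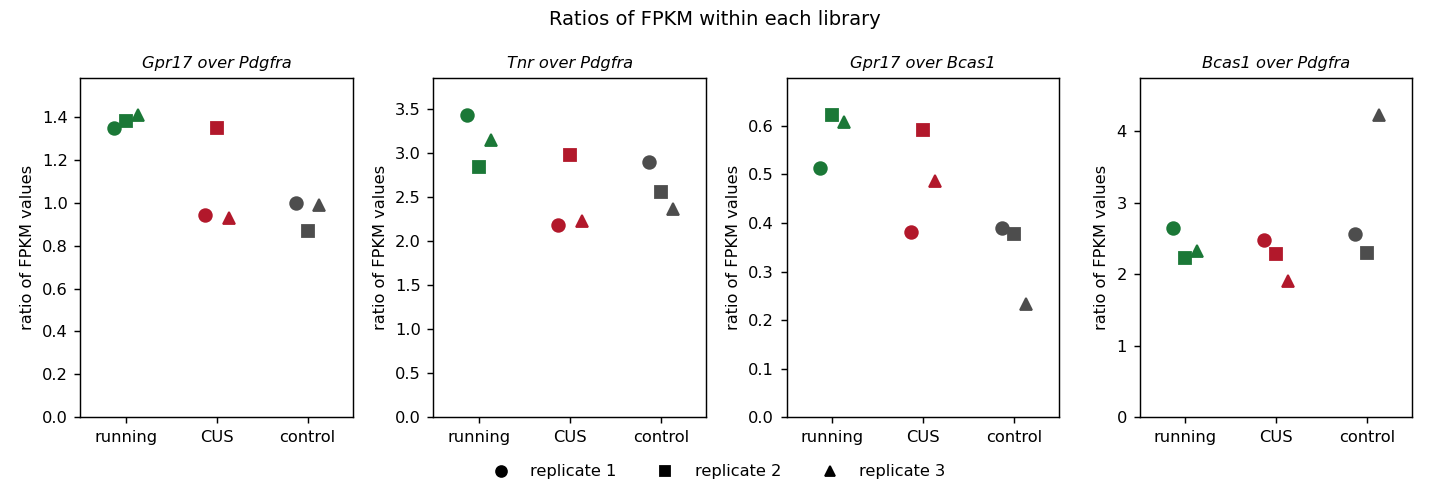
Ratios of FPKM values of 2 genes within each library (vertical axes, from 0), by group. Gpr17 over Pdgfra is between 1.35 and 1.41 in the running libraries and at most 0.998 in the controls, with CUS replicate 2 at 1.35.

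Running against control asks whether the running mice differed from unstressed mice. The list split: Gpr17 and Tnr had higher means in running libraries, by 33.5% and 9.86%, and the other 7 genes had lower means, down to 0.596 times the control mean for Enpp6 and 0.718 times for Bcas1. Adjusted p by limma lay between 0.267 and 0.670, with 0.0214% of all genes called. At an unadjusted p under 0.05 there were 1 higher gene (Gpr17) and 2 lower genes (Olig1 and Enpp6), against 5.15% higher and 6.47% lower among all genes. Under TPM scaling the list's genes were the same, against 6.78% higher and 4.3% lower, and under quantile normalization they were Gpr17 higher and Olig1 lower, against 6.68% and 5.35%. The list's median log2 difference was -0.185, against -0.019 over all genes, and 2 genes were above 0 and 7 below it, against 43.8% and 56.2% of all genes.

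All 3 running values of Gpr17 lay above the highest control value of 8.34 FPKM. The log2 difference was 0.39 (SE 0.117, 0.13 to 0.65), and it lay between 0.34 and 0.49 without any 1 library. Olig1 had 38.61, 35.37 and 34.35 FPKM in running libraries, against 41.43, 40.88 and 49.36 in controls, fully separated, with a log2 difference of -0.27 (-0.47 to -0.07). Enpp6 was separated too, with -0.46 (-0.87 to -0.04), as were Cspg4 with -0.26 (-0.65 to 0.13) and Bcas1 with -0.42 (-0.84 to 0.01). Tnr was separated upward, with running replicate 1 and control replicate 1 close together and a log2 difference of 0.13 (-0.06 to 0.33). Separated values were found in 11.9% of all genes downward and 10.5% upward. Without control replicate 3 the difference of Bcas1 was -0.15, that of Sox10 -0.0049, and 0 genes of the list were lower at an unadjusted p under 0.05, against 3.84% of all genes. Without control replicate 1 there were 5 such genes (Sox10, Enpp6, Olig2, Olig1 and Bcas1), against 5.89% of all genes. Each group enters 2 of the 3 comparisons, so the 3 sets of differences share libraries.

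Taking the groups in order of their mean, 5 genes ran control, running, CUS from high to low (Pdgfra, Cspg4, Sox10, Bcas1 and Enpp6), Olig1 and Olig2 ran control, CUS, running, and Gpr17 and Tnr ran running, control, CUS. Between neighbours in these orders no gene passed the adjusted threshold. A moderated F test for any difference among the 3 groups gave its smallest p for Tnr (unadjusted p = 0.00190, limma adjusted p = 0.129) and Gpr17 (unadjusted p = 0.00631, limma adjusted p = 0.148). By this test 5 of the 9 had an unadjusted p under 0.05, against 21.1% of all genes, and 0 were called, against 0.0214%.

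**Figure D4:**
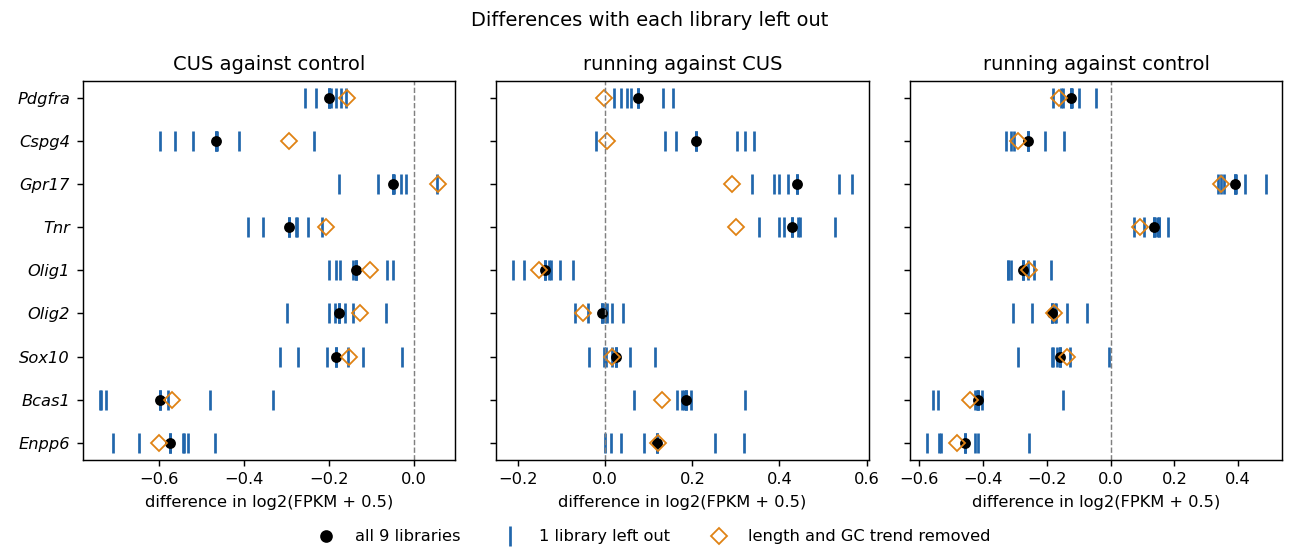
Differences in log2(FPKM + 0.5) of the 9 genes with all 9 libraries (circles), with each library left out in turn (bars) and after removal of a length and GC trend (diamonds). Gpr17 and Tnr stay at or above 0.29 in running against CUS, while Bcas1 in CUS against control runs between -0.74 and -0.33.

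The 9 genes did not vary as a unit across libraries. Of their 36 pairs, 29 had a Pearson r above 0 over the 9 libraries, 7 below 0 and 4 above 0.7. The highest was that of Sox10 and Bcas1 (r = 0.866), followed by Gpr17 and Tnr (0.760), Olig2 and Sox10 (0.752) and Cspg4 and Bcas1 (0.732). The lowest was that of Gpr17 and Olig1 (r = -0.710). These are descriptions over libraries that share groups, and r was also taken over deviations from the group means. There the value farthest from 0 was -0.915 for Tnr and Olig1, which had r = -0.505 over the libraries, followed by 0.871 for Sox10 and Bcas1 and 0.868 for Cspg4 and Gpr17. For Gpr17 and Tnr it was 0.650. Olig1 and Olig2, neighbours on chromosome 16, had r = 0.559, and the ratio of Olig1 to Olig2 lay between 3.11 and 4.28.

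A list of 25 kept genes of myelin and mature oligodendrocytes had a median log2 difference of -0.40 in CUS against control, with 23 lower and 2 higher, and of -0.40 in running against control, with 25 lower. In running against CUS the median was 0.0032, with 13 higher and 12 lower. No gene of it was called in any comparison. Its summed level was 793 to 881 FPKM in running libraries, 713 to 992 in CUS libraries and 884 to 1555 in controls. Over the 9 libraries the score of this list (mean log2 deviation of its genes) had r = 0.946 with Sox10, 0.935 with Bcas1, 0.753 with Enpp6, 0.732 with Olig1 and 0.669 with Olig2. With Pdgfra and Cspg4 it had 0.535 each, and with Gpr17 and Tnr -0.235 and -0.0747. The score was -0.012, 0.11 and 0.664 in control replicates 1, 2 and 3, and 0.18, -0.28 and -0.29 in CUS replicates 1, 2 and 3. Control replicate 3 was also the highest library for Sox10 and Bcas1, and r was not taken without it. With the score of the committed and newly formed oligodendrocyte genes Bcas1 had r = 0.743, so its level is not read as that of 1 stage. Myrf, which encodes a transcription factor needed for myelination, had 3.88, 3.40 and 3.01 FPKM in CUS libraries, against 4.64, 4.94 and 7.95 in controls. The groups did not overlap (log2 difference -0.66, limma adjusted p = 0.253). Mobp, a myelin protein, had 26.46, 20.67 and 16.74 FPKM in CUS libraries, against 31.54, 30.35 and 56.92 in controls, where control replicate 3 was again the highest. No myelin gene was at 0 in every library, and the part of these genes in the results for Bcas1 and Sox10 was not tested.

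**Figure D5:**
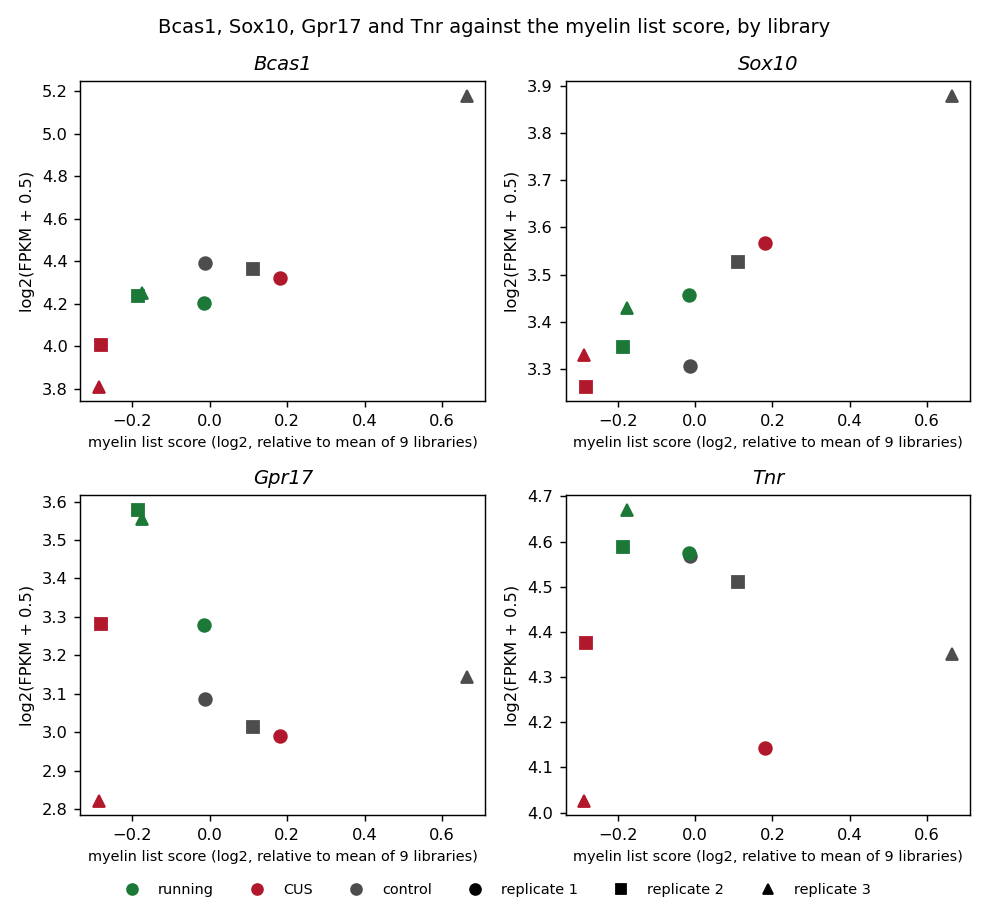
Level of Bcas1, Sox10, Gpr17 and Tnr in log2(FPKM + 0.5) against the score of the myelin list in log2 units, 1 point per library, coloured by group. Control replicate 3 lies far right at a score of 0.664 and is the highest library for Bcas1 and Sox10. Over all 9 libraries r with the score is 0.935 for Bcas1, 0.946 for Sox10, -0.235 for Gpr17 and -0.0747 for Tnr.

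Other markers of precursors lay around 0. Of 17, CUS libraries had lower levels than controls for 11 and higher ones for 6 (median -0.053), 9 were higher and 8 lower in running than in CUS libraries (median 0.019), and 8 were higher and 9 lower in running than in control libraries (median -0.0041), with 0 called. Sox8, a SOX factor related to SOX10, had 15.60, 16.68 and 16.66 FPKM in running libraries, against 12.23, 11.14 and 11.32 in CUS libraries, fully separated (log2 difference 0.48, limma adjusted p = 0.0827). Values separated upward in 8.99% of all genes there. Control libraries had 14, 11.03 and 16.57 FPKM of Sox8 and overlapped both other groups. Xylt1, which starts the sugar chains of proteoglycans, averaged 2.62 ± 1.25 FPKM in CUS libraries and 4.75 ± 0.726 in controls (SD, n = 3 each; log2 difference -0.84, limma adjusted p = 0.267). In running libraries it averaged 4.76 ± 0.417, with a log2 difference from CUS of 0.85 (limma adjusted p = 0.107). CUS replicate 3 was the lowest library for Xylt1 at 1.18 FPKM, against 3.38 and 3.30 in CUS replicates 1 and 2. Cspg5 was lower in running libraries, at 86.2 ± 4.91 FPKM against 95.1 ± 2.09 in controls (SD, n = 3 each). These values were fully separated (log2 difference -0.14, limma adjusted p = 0.413), as were 11.9% of all genes downward in that comparison. Among 21 kept genes of committed and newly formed oligodendrocytes the medians were -0.058 in CUS against control (7 higher, 14 lower), -0.030 in running against CUS (9 higher, 12 lower) and -0.044 in running against control (8 higher, 13 lower), again with 0 called. Nfasc, a cell adhesion protein of the axon-glia junction that neurons also make, averaged 29.7 FPKM in running libraries, 24.0 in CUS libraries and 30.0 in controls. Samd4b averaged 26.06 FPKM in running libraries, 22.13 in CUS libraries and 22.15 in controls, and of the genes of the lists used here its profile was the most like Gpr17 (r = 0.884). Rras2 went the other way, at 5.43 FPKM in running and 6.40 in CUS libraries (log2 difference -0.22, limma adjusted p = 0.122). At an unadjusted limma p under 0.05, 4 genes of this list were higher and 2 lower there, against 7.74% and 15.7% of all genes. In running against control 2 were higher and 3 lower, against 5.15% and 6.47%. Gpr37 was among those lower, at 6.02 FPKM in running libraries and 8.27 in controls.

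Among 26 kept transcription regulators of the lineage, 17 were higher in running than in CUS libraries (median 0.052), 11 were higher in CUS than in control libraries (median -0.040) and 15 were higher in running than in control libraries (median 0.0099), and none was called by limma. At an unadjusted p under 0.05 there were 4 higher and 2 lower genes in running against CUS, 2 higher and 1 lower in CUS against control, and 4 higher and 3 lower in running against control, where 23.5%, 14.7% and 11.6% of all genes had such a p in either direction. Hes5, a Notch target that holds precursors undifferentiated and is abundant in astrocytes and neural progenitors, averaged 8.47 ± 0.400 FPKM in running libraries, 12.9 ± 1.80 in CUS libraries and 7.71 ± 1.18 in controls (SD, n = 3 each). Its limma adjusted p was 0.224 in CUS against control and 0.0776 in running against CUS. Among 22 kept growth factor and receptor genes that act on precursors, 5 were higher in CUS than in control libraries (median -0.091), 17 were higher in running than in CUS libraries (median 0.070) and 10 were higher in running than in control libraries (median -0.011), with 0 called. Pdgfa, the ligand of PDGFRA, averaged 22.7 FPKM in running libraries against 24.9 in CUS libraries, a log2 difference of -0.13 (limma unadjusted p = 0.0346, adjusted p = 0.180). In this comparison 15.7% of all genes were lower at an unadjusted p under 0.05.

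Among 12 kept partners of tenascin-R in the perineuronal matrix, 10 were lower in CUS than in control libraries (median -0.11), 10 were higher in running than in CUS libraries (median 0.14) and 7 were higher in running than in control libraries (median 0.021), with 0 called. Ncan, the proteoglycan neurocan, had 34.10, 35.93 and 38.49 FPKM in running libraries, 30.49, 32.59 and 27.42 in CUS libraries and 35.24, 35.01 and 32.90 in controls. Running and control values both lay above all CUS values, and of the genes of the lists used here Ncan had the profile most like Tnr (r = 0.967). Acan, the aggrecan core protein, was below the filter. Among 18 kept cell cycle genes 9 were higher in CUS than in control libraries (median 0.0050), 7 were higher in running than in CUS libraries (median -0.089) and 5 were higher in running than in control libraries (median -0.045). Ccnd2, a D-type cyclin that many cortical cells make, passed the adjusted threshold in running against control, at 15.4 ± 1.09 FPKM in running libraries and 9.96 ± 0.495 in controls (log2 difference 0.60, limma adjusted p = 0.0265). The mitotic genes Mki67, Top2a, Cdk1 and Ccnb1 were below the filter.

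By the mean of the 9 log2 profiles, the genes outside the list with the most similar profiles were Cpt1a (r = 0.980), Myrf (0.973), Cpm (0.972), Epb41l5 (0.961) and Myh14 (0.960) over 9 libraries. They were picked as the highest r among many genes, which was not tested. The mean profile was highest in control replicate 3 (0.302) and lowest in CUS replicate 3 (-0.267), the libraries that stood apart. CPT1A is the enzyme that admits long-chain fatty acids to mitochondria. For single genes the nearest of these lists were Mal for Bcas1 (r = 0.986) and Tspan2 for Sox10 (0.972), both membrane proteins of myelinating cells, Slc4a4 for Pdgfra (0.907), Pdgfrb, the receptor of mural cells, for Cspg4 (0.900), Kcnj8 for Olig2 (0.854) and Erbb4 for Enpp6 (0.839).

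In lists for other cell types of the tissue, 0 genes were called in any comparison, with smallest limma adjusted p of 0.0924 over these lists. In CUS against control the medians were -0.087 for 14 astrocyte genes, 0.096 for 12 microglial genes, -0.27 for 11 endothelial genes, -0.19 for 12 mural genes, 0.14 for 12 meningeal fibroblast genes, 0.12 for 10 excitatory and -0.074 for 11 inhibitory neuron genes. In running against CUS they were 0.072, -0.23, -0.050, -0.0073, -0.40, 0.00020 and 0.0078 in the same order. In running against control they were -0.071, -0.050, -0.24, -0.25, -0.20, 0.097 and -0.016. Of 9 choroid plexus genes 2 were kept, with medians of -0.15 in CUS against control, 0.38 in running against CUS and 0.23 in running against control. The score of the microglial list had r = -0.899 with Tnr and -0.661 with Gpr17 over the 9 libraries, and its summed level was 262 to 280 FPKM in running libraries, 287 to 367 in CUS libraries and 279 to 312 in controls. No microglial marker was at 0 in all libraries, and the part of this list in the results for Tnr and Gpr17 was not tested.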

How the data were processed

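Polyadenylated RNA of mouse medial prefrontal cortex was sequenced in 9 libraries. The authors deposited FPKM values rounded to 2 decimals, per the file header and values. Bowtie2 2.2.5, RSEM 1.2.12, DESeq2 1.4.5 and the build mm10 are named, per the submitters' processing notes, without their roles. The annotation release was not given in the sources used here. Without read depth, FPKM allow no counting intervals.

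Values were analysed as log2(FPKM + 0.5), which understates changes of low genes such as Enpp6. One limma 3.58.1 model (R 4.3.3, intensity trend, 6 residual degrees of freedom) of all 9 libraries and 14013 genes was used, with Benjamini-Hochberg adjustment over all genes and a call at an adjusted p under 0.05. With 3 libraries a group, the smallest p of an exact permutation test is 0.1. The code was tested on simulated data. Replicate numbers follow the order of listing. Alternatives were other pseudocounts, filters, scalings, weights and fits, and each library left out. The members and lists were chosen with earlier results of these data known. Named were all 9 members, some of up to 3 genes per list and comparison with the smallest p and a mean of at least 1 FPKM, and the genes with the highest Pearson r (that for Olig1 is not reported here). Lims2 is named as context, chosen after its values were seen. Sums of lists use all genes found. Promoters came from RefSeq, and transcript lengths and GC, matched for 13766 genes, from GENCODE M21.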

Additional observations from a re-analysis of the deposited data

How the results depend on the processing

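No paired analysis was possible because replicate numbers follow the order of listing and mark no shared animal or batch. For single genes of the list, 539 of 564 values under alternatives kept their direction and their side of the threshold, 21 changed sign and 4 passed the threshold (Tnr and Gpr17 in running against CUS, under weights at 0.45 each and without CUS replicate 2). Those 2 fits called 2178 of 14013 and 1535 of 13977 genes. In running against CUS, Olig2 was 0.091 under TPM, 0.026 under median-of-ratios and 0.012 under quantile normalization, 0.064 with library quality weights, and -0.069 to 0.040 with 1 library left out. Sox10 was -0.080 and Enpp6 -0.14 with weights, and they ran from -0.038 to 0.11 and from -0.00079 to 0.32 with 1 library left out. Cspg4 ran from -0.022 to 0.34. Gpr17 in CUS against control ran from -0.18 to 0.054. An alternative chosen after seeing the data, leaving out both CUS replicate 3 and control replicate 3, gave 0.085 for Gpr17 in CUS against control, and -0.022 for Cspg4, 0.00044 for Olig2 and -0.0038 for Sox10 in running against CUS. With length and GC trend removed, also chosen after seeing the data, Gpr17 in CUS against control was 0.056 and Pdgfra in running against CUS was -0.0032.

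The list's median in running against CUS was 0.23 under TPM, where that of all genes was 0.062, 0.0088 with weights, 0.016 with length and GC trend removed, and 0.036 to 0.25 with 1 library left out. In running against control it was -0.29 to -0.12 with 1 library left out, and in CUS against control -0.30 to -0.20. The CUS against control median was -0.19 with weights. It was -0.18 without both CUS replicate 3 and control replicate 3, and -0.16 with length and GC trend removed, with 8 genes lower and 1 higher in each. In CUS against control, 2 genes of the list (Cspg4 and Tnr) were lower at an unadjusted p under 0.05 with weights, against 8.01% of all genes, and 7 under TPM, against 9.66%. The number of genes called in CUS against control was 1, and it was 0 with a filter at 1 FPKM, 8 with weights, 0 without both libraries, 0 with length and GC trend removed and 0 to 5 with 1 library left out. In running against CUS it was 1, and 0 with no filter, 2 under median-of-ratios or quantile normalization, 15 with the 6 libraries compared alone, 2178 with weights, 0 without both libraries, 2 with length and GC trend removed and 0 to 1535 with 1 library left out. In running against control it was 3, and 1 with no filter, 24 with the 6 libraries alone, 7 with no intensity trend, 147 with weights, 7 with length and GC trend removed and 0 to 10 with 1 library left out. For any difference it was 3, and 1 with no filter, 0 with a filter at 1 FPKM, 1373 with weights, 0 without both libraries and 0 to 63 with 1 library left out. Enpp6 did not pass the filter at 1 FPKM. The causes were not tested. Depth is unknown, and with 3 libraries a group the interval of the log2 difference of Cspg4, Bcas1 or Enpp6 is wide.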
